A study of Mus musculus with 9 samples.

Results

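The genes described here are 10 genes of the integrated stress response: the transcription factor Atf4 and 9 of its known targets, Ddit3, Asns, Trib3, Chac1, Sesn2, Psat1, Phgdh, Slc7a11 and Ddit4. They were picked by name from the 38215 genes of the count table, which lists each of them once, and all 10 passed the filter on low counts that kept 14944 genes. RNA was sequenced from bone marrow cells of 9 C57BL/6J mice, sorted as LSK cells (free of lineage markers, with Sca1 and Kit on the surface) that carried both GFP and mCherry. LSK cells are the marrow fraction that contains blood stem cells and multipotent progenitors. In 5 mice, labelled EV, the genotype is Jak2V617F alone, and in the other 4 it is Jak2V617F with sgZrsr2. EV and the prefix sg are not spelled out in the labels, and the design text calls the second group a loss of Zrsr2, a splicing factor for U12-type introns. Every mouse had been given tamoxifen and every mouse had the Jak2V617F mutation, which activates the kinase Jak2, so no group with normal Jak2 is compared. Ages and the drivers of the transgenes are not given in the sources used here.

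The integrated stress response begins with kinases that sense amino acid shortage, unfolded protein, viral RNA or haem shortage and phosphorylate the translation factor eIF2. General protein synthesis then slows, while Atf4 messenger RNA is translated more because short upstream reading frames no longer hold ribosomes back. Atf4 protein binds C/EBP-ATF elements and switches on genes for amino acid synthesis and uptake, for antioxidant defence and for restraint of the growth kinase mTORC1, and, with Ddit3, genes linked to cell death. Blood stem cells are known for slow protein synthesis and for active Atf4 signalling. Because Atf4 is controlled at translation, the level of its messenger RNA does not show the amount of protein, and its targets are the usual readout.

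Promoter windows from RefSeq (GRCm38.p6, 250 bases before to 50 bases after the start site) were available for all 10 genes, 11 windows in total because Psat1 has 2. The C/EBP-ATF core TGATGNAA, searched on both strands, was present in 4 of the 10 genes: Asns, Slc7a11, Chac1 and Trib3. Of all 27025 genes with a window, 4.51% held it. The cAMP response element TGACGTCA was in 0 of the 11 windows and in 1.79% of all 32851 windows. With the start site as position 0, the match began at -23 in Asns, at -66 and again, on the opposite strand, at -47 in Slc7a11, at -193 on the opposite strand in Chac1, and at 14 on the opposite strand in Trib3. The 250 bases before the start site are shown for the 3 genes with a match there, 5′ to 3′ in the direction of transcription, with the matches in capitals. A match is a description of letters and does not show binding.
Asns (chr6:7693210-7693459, minus strand): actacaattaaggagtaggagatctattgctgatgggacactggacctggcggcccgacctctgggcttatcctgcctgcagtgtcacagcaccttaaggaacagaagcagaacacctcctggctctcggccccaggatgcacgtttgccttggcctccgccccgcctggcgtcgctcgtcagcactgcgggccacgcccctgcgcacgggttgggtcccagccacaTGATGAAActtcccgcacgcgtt
Slc7a11 (chr3:50443614-50443863, minus strand): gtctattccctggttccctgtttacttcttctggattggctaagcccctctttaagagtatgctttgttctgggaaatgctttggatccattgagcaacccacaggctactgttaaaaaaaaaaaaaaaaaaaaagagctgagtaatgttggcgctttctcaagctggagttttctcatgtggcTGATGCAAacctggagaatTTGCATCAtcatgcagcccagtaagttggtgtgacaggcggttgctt
Chac1 (chr2:119350992-119351241, plus strand): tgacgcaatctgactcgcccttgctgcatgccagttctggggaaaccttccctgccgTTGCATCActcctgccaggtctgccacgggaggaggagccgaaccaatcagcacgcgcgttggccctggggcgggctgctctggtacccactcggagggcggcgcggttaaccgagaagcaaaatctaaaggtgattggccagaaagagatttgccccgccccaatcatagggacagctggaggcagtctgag

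The libraries held 23238264 to 45585531 expected counts. Zrsr2 was lower in all 4 sgZrsr2 libraries (31.7 to 44.4 CPM, counts scaled to a common library size) than in all 5 EV libraries (50.6 to 62.2 CPM). The fitted log2 fold change was -0.46 (SE 0.12, edgeR adjusted p = 0.714). All 7 LSK markers were detected, with Kit at 247 to 632 CPM and Cd34 at 544 to 705 CPM. Ly6a, the gene for Sca1, was at 14.8 to 49.3 CPM, and Slamf1 was the lowest marker at 4.06 to 9.10 CPM. EV mouse 5 and sgZrsr2 mice 3 and 5 stood apart with Car1, an early erythroid gene, at 25.4 to 39.3 CPM against at most 0.422 CPM in the other 6. The erythroid markers (6 of 7 found, none at 0 in all libraries) summed to 4.96 to 71.2 CPM with EV and 8.36 to 111 CPM with sgZrsr2. The libraries of sgZrsr2 mice 1 and 2 were the most alike pair, with a median difference of 3.98% over 2396 genes, and were kept as separate samples as labelled. The next pairs were EV mice 1 and 2 (5.32%) and EV mouse 5 with sgZrsr2 mouse 5 (6.49%). Fos, Fosb, Egr1, Dusp1 and Ier2, genes that respond within minutes to handling and sorting, summed to 2834 to 9022 CPM with EV and 2425 to 8269 CPM with sgZrsr2. In cells measured in bulk, fewer cells of a type and less RNA per cell cannot be told apart.

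None of the 10 genes differed between the groups past the adjusted threshold. In edgeR's quasi-likelihood test 0 of the 10 had a Benjamini-Hochberg adjusted p under 0.05, as did 0% of all 14944 genes tested. At an unadjusted p under 0.05 there were also 0 of the 10, against 6.85% of all genes (3.87% higher and 2.98% lower). In 0 of the 10 did the 2 groups separate without overlap, which 3.06% of all genes did (1.75% higher and 1.32% lower). In the DESeq2 Wald test 0 of the 10 passed, among 16 genes called. The fitted values lay below 0 in 7 of the 10 and above 0 in 3 (51.5% of all genes lay below 0), with a median log2 fold change of -0.17 beside -0.01 for all genes. This median turned to 0.02 without EV mouse 3. The plot of fitted differences shows intervals that all include 0, and their width differs greatly between genes.

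**Figure D1:**
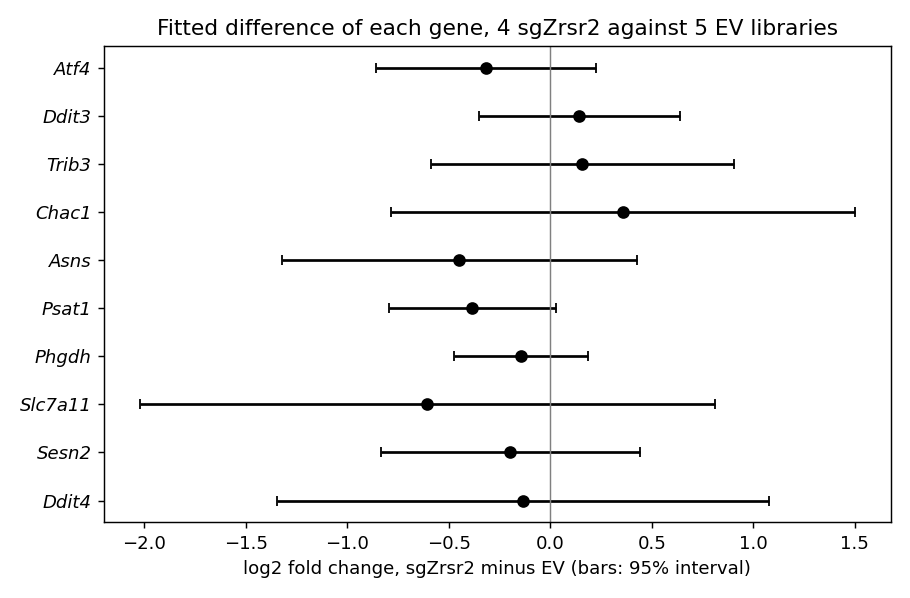
Fitted log2 fold change (sgZrsr2 minus EV, x axis) of each of the 10 genes (y axis) with its 95% interval from edgeR's quasi-likelihood fit over 5 EV and 4 sgZrsr2 libraries. Every interval includes 0, the narrowest being that of Phgdh (-0.47 to 0.19) and the widest that of Slc7a11 (-2.02 to 0.81).

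Per length of exon, the 10 genes spanned a wide range of levels. Averaged over 9 libraries, Atf4 stood at 162 CPM per kilobase and Phgdh at 132, and their ranges over libraries overlapped (114 to 291 and 91.1 to 154). Psat1 followed at 39.8 CPM per kilobase (24.8 to 60.0), clear of Phgdh but overlapping Ddit4. Ddit4 (23.6, range 8.16 to 57.5), Ddit3 (10.9, range 8.45 to 17.0), Sesn2 (5.17, range 3.56 to 9.82), Asns (4.90, range 2.22 to 9.20) and Trib3 (1.62, range 0.890 to 2.60) each overlapped the next. Chac1 (0.395, range 0.122 to 0.698) and Slc7a11 (0.0492, range 0.0111 to 0.118) lay lowest and did not overlap each other or Trib3. Before division by length, Chac1 and Slc7a11 had similar means, 0.646 and 0.686 CPM. Their exon unions were 1637 and 13922 bases, and which part of these is expressed was not tested. On the means per kilobase the serine synthesis genes were the most abundant targets, although Psat1 and Ddit4 overlapped, and the cystine transporter and the glutathione-degrading enzyme were the least abundant.

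Atf4 (ENSMUSG00000042406; chromosome 15, 80255184 to 80257540, plus strand, GRCm38), the factor at the head of the response, measured 371, 351, 686, 409 and 277 CPM (EV mice 1 to 5) and 384, 409, 285 and 270 CPM (sgZrsr2 mice 1, 2, 3 and 5). EV mouse 3 stood highest and the groups overlapped. The means were 419 ± 157 CPM (SD, n = 5) and 337 ± 69.7 CPM (SD, n = 4), a log2 fold change of -0.32 (SE 0.25, 95% interval -0.86 to 0.23, edgeR adjusted p = 0.757). Without EV mouse 3 the log2 fold change was -0.07. The 3 lowest libraries, at 270 to 285 CPM, were the 3 with Car1 above 25 CPM, and these 3 also had the highest Vwf (53.2 to 91.1 CPM against at most 11.4 CPM) and Pf4 (22.0 to 37.4 CPM against at most 3.43 CPM), both megakaryocyte genes. The 5 handling genes summed to 2834 CPM in EV mouse 5 and to 5250 and 2425 CPM in sgZrsr2 mice 3 and 5, against 4524 to 9022 CPM in the other 6. All 6 megakaryocyte markers were found, with sums of 153 to 351 CPM with EV and 251 to 506 CPM with sgZrsr2. The part of these in the level of Atf4 was not tested.

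Ddit3 (ENSMUSG00000025408; chromosome 10, 127290774 to 127296288, plus strand) encodes CHOP, the stress factor that pairs with Atf4. It measured 17.9, 16.4, 23.6, 14.5 and 17.2 CPM (EV mice 1 to 5) and 14.6, 15.6, 29.1 and 19.6 CPM (sgZrsr2 mice 1, 2, 3 and 5). The highest library was sgZrsr2 mouse 3, and the other 3 of its group lay within the EV range. The log2 fold change was 0.14 (SE 0.22, 95% interval -0.35 to 0.64, edgeR adjusted p = 0.877), and without sgZrsr2 mouse 3 it was -0.11. The gene overlaps Mars, a tRNA synthetase gene on the minus strand at 78.5 to 143 CPM. Whether reads were counted by strand is not stated. The expected count of Ddit3 was a whole number in 9 of 9 libraries, so no divided reads show in it. The origin of reads from the overlap was not tested further.

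Trib3 (ENSMUSG00000032715; chromosome 2, 152337422 to 152344032, minus strand), a pseudokinase that restrains Akt and Atf4 itself, had, like Ddit3, sgZrsr2 mouse 3 first and EV mouse 3 second. It measured 3.63, 2.30, 4.21, 3.86 and 2.39 CPM (EV mice 1 to 5) and 4.05, 3.16, 5.52 and 1.89 CPM (sgZrsr2 mice 1, 2, 3 and 5). Both the highest and the lowest library were thus in the sgZrsr2 group. Its log2 fold change was 0.16 (SE 0.34, 95% interval -0.59 to 0.91, edgeR adjusted p = 0.910), and without sgZrsr2 mouse 3 it was -0.11.

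Chac1 (ENSMUSG00000027313; chromosome 2, 119351229 to 119354381, plus strand), which breaks down glutathione, rested on only 7 to 47 counts per library. It measured 0.749, 0.199, 0.343, 0.866 and 0.727 CPM (EV mice 1 to 5) and 0.312, 0.840, 1.14 and 0.640 CPM (sgZrsr2 mice 1, 2, 3 and 5). Here too sgZrsr2 mouse 3 was the highest of the 9, so that library held the top value of Ddit3, Trib3 and Chac1. The log2 fold change was 0.36 (SE 0.52, 95% interval -0.78 to 1.501, edgeR adjusted p = 0.865). Without sgZrsr2 mouse 3 it was 0.056, without EV mouse 2 it was 0.14 and without EV mouse 3 it was 0.22, and leaving out EV mouse 4 or sgZrsr2 mouse 1 gave 0.55 and 0.59. In the library of sgZrsr2 mouse 3, S100a9 and Ngp, genes of mature neutrophils, were at 56.9 and 53.2 CPM, the highest of the 9, followed by EV mouse 5 (49.5 and 43.0 CPM). S100a8, Ltf and Camp were also highest of the 9 in sgZrsr2 mouse 3. The 7 neutrophil markers together summed to 2725 CPM in that library, the lowest sum of the sgZrsr2 libraries (EV 2205 to 2994 CPM). Most of that sum was Mpo (2291 CPM) and Elane (246 CPM), so it says little about the other markers. None of the 7 was at 0 in all libraries. The part of the neutrophil markers in the values of Ddit3, Trib3 and Chac1 was not tested.

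Asns (ENSMUSG00000029752; chromosome 6, 7675169 to 7693254, minus strand), the enzyme that makes asparagine and a standard readout of amino acid shortage, varied 4.14-fold between libraries. It measured 7.60, 6.08, 19.98, 25.1 and 17.2 CPM (EV mice 1 to 5) and 9.30, 8.32, 13.3 and 13.6 CPM (sgZrsr2 mice 1, 2, 3 and 5). The EV group held both the lowest and the highest libraries, and the sgZrsr2 values lay between them. The means were 15.2 ± 8.17 CPM (SD, n = 5) and 11.1 ± 2.71 CPM (SD, n = 4), a log2 fold change of -0.45 (SE 0.40, 95% interval -1.32 to 0.43, edgeR adjusted p = 0.779). Without EV mouse 4 it was -0.19.

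Psat1 (ENSMUSG00000024640; chromosome 19, 15904678 to 15947337, minus strand), the aminotransferase of serine synthesis, had the smallest unadjusted p of the 10. It measured 155, 148, 208, 255 and 177 CPM (EV mice 1 to 5) and 152, 159, 105 and 162 CPM (sgZrsr2 mice 1, 2, 3 and 5). EV mice 3, 4 and 5 were above every sgZrsr2 library, while EV mice 1 and 2 lay within the sgZrsr2 range. The means were 189 ± 43.9 CPM (SD, n = 5) and 145 ± 26.5 CPM (SD, n = 4). The log2 fold change was -0.38 (SE 0.19, 95% interval -0.79 to 0.03), with an edgeR unadjusted p of 0.0647 and an adjusted p of 0.714. Without EV mouse 4 the log2 fold change was -0.25. The unadjusted p was 0.0451 without EV mouse 1 and 0.0366 without EV mouse 2, and in both fits the adjusted p stayed above the threshold (0.668 and 0.818).

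Phgdh (ENSMUSG00000053398; chromosome 3, 98313170 to 98339990, minus strand), the first enzyme of the same pathway, was the least variable of the 10, with a 1.69-fold range. It measured 292, 302, 384, 376 and 364 CPM (EV mice 1 to 5) and 332, 339, 227 and 347 CPM (sgZrsr2 mice 1, 2, 3 and 5). The sgZrsr2 library of mouse 3 was the lowest for Phgdh and for Psat1. Its log2 fold change was -0.14 (SE 0.15, 95% interval -0.47 to 0.19, edgeR adjusted p = 0.813), and without sgZrsr2 mouse 3 it was -0.019. The expected count was a whole number in 0 of 9 libraries, so some reads were divided between Phgdh and other genes and its level is less certain.

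Slc7a11 (ENSMUSG00000027737; chromosome 3, 50364936 to 50443613, minus strand), the cystine importer that feeds glutathione synthesis, had 7 to 74 counts per library. It measured 0.461, 0.155, 1.31, 1.64 and 0.465 CPM (EV mice 1 to 5) and 0.890, 0.360, 0.414 and 0.473 CPM (sgZrsr2 mice 1, 2, 3 and 5). EV mice 3 and 4 exceeded the other 7 libraries. The log2 fold change was -0.61 (SE 0.64, 95% interval -2.02 to 0.81, edgeR adjusted p = 0.815). It was -0.17 without EV mouse 4, -0.39 without EV mouse 3 and -0.96 without sgZrsr2 mouse 1.

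Sesn2 (ENSMUSG00000028893; chromosome 4, 132492032 to 132510501, minus strand), a leucine sensor that holds back mTORC1, measured 12.6, 14.7, 34.1, 18.8 and 14.8 CPM (EV mice 1 to 5) and 19.5, 18.8, 15.8 and 12.4 CPM (sgZrsr2 mice 1, 2, 3 and 5). EV mouse 3 stood alone, and the other 8 libraries lay between 12.4 and 19.5 CPM. The log2 fold change of -0.20 (SE 0.29, 95% interval -0.83 to 0.44, edgeR adjusted p = 0.870) turned to 0.11 without EV mouse 3.

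Ddit4 (ENSMUSG00000020108; chromosome 10, 59949675 to 59951770, minus strand), also known as Redd1, blocks mTORC1 through the TSC complex and answers to Atf4, glucocorticoids and low oxygen. It measured 22.4, 21.8, 101, 53.0 and 17.6 CPM (EV mice 1 to 5) and 53.0, 56.7, 33.3 and 14.3 CPM (sgZrsr2 mice 1, 2, 3 and 5). The range over libraries was 7.05-fold, and each group held high and low libraries. The log2 fold change was -0.14 (SE 0.55, 95% interval -1.35 to 1.08, edgeR adjusted p = 0.958). Its sign was set by single libraries, with 0.44 without EV mouse 3 and 0.14 without sgZrsr2 mouse 5.

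**Figure D2:**
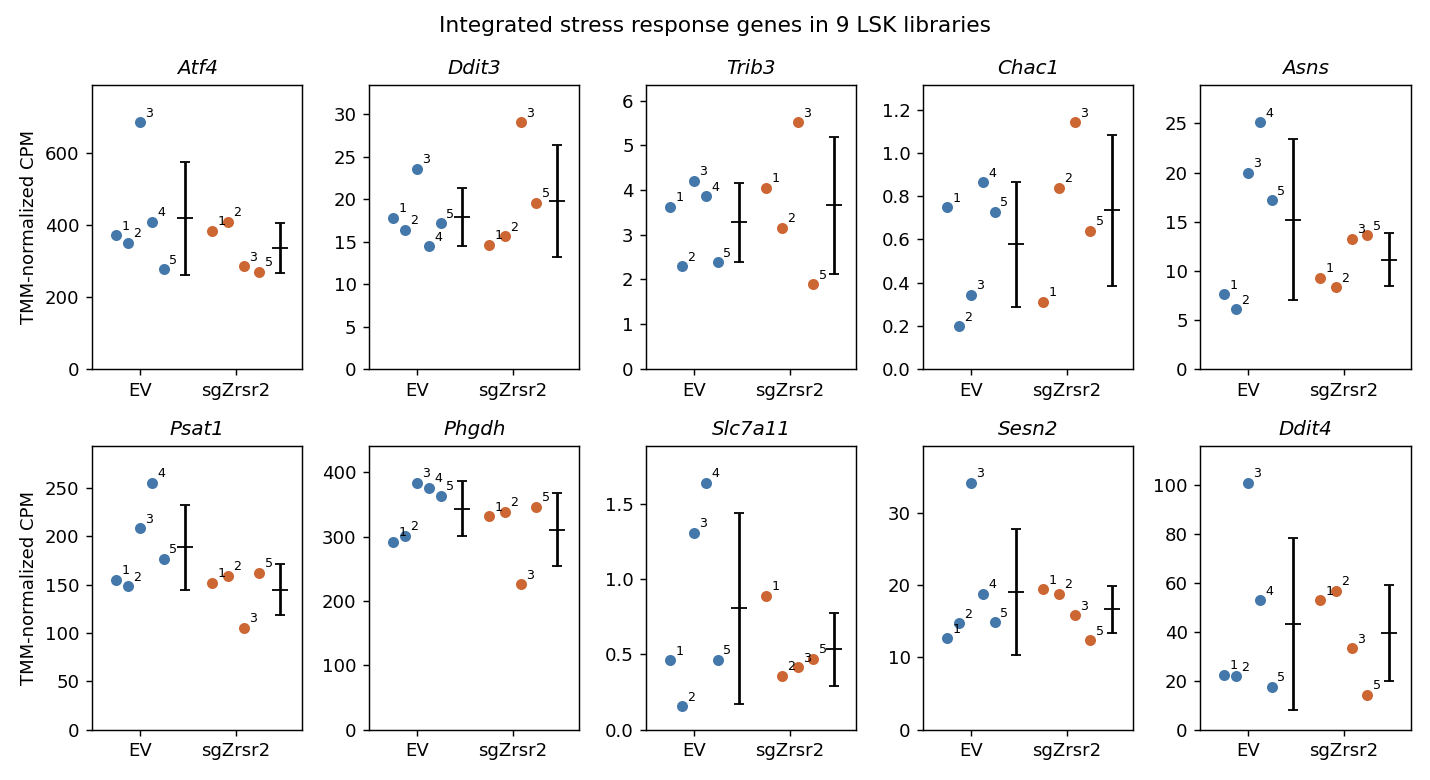
TMM-normalized CPM (y axis, from 0) of each of the 10 genes in the 5 EV and 4 sgZrsr2 libraries, with the mouse number beside each point and the group mean and SD as a black bar. The groups overlap in every panel; EV mouse 3 is highest for Atf4, Phgdh, Sesn2 and Ddit4, EV mouse 4 for Asns, Psat1 and Slc7a11, and sgZrsr2 mouse 3 for Ddit3, Trib3 and Chac1.

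Two-sided exact permutation tests of the mean CPM gave p-values from 0.151 (Psat1) to 0.881 (Ddit4) for the 10 genes, where 0.0159 is the smallest that 5 against 4 can give. Libraries of the same group varied widely. EV mouse 3 held the highest value of 4 genes, EV mouse 4 of 3 and sgZrsr2 mouse 3 of 3. For Ddit3 and Trib3, highest in sgZrsr2 mouse 3, EV mouse 3 was the next. With EV mice 3 and 4 left out together, a choice made after the values were seen, 2 of the 10 fitted values lay below 0 and their median was 0.22, and 0 passed the adjusted threshold. The plot of levels by library shows these columns.

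**Figure D3:**
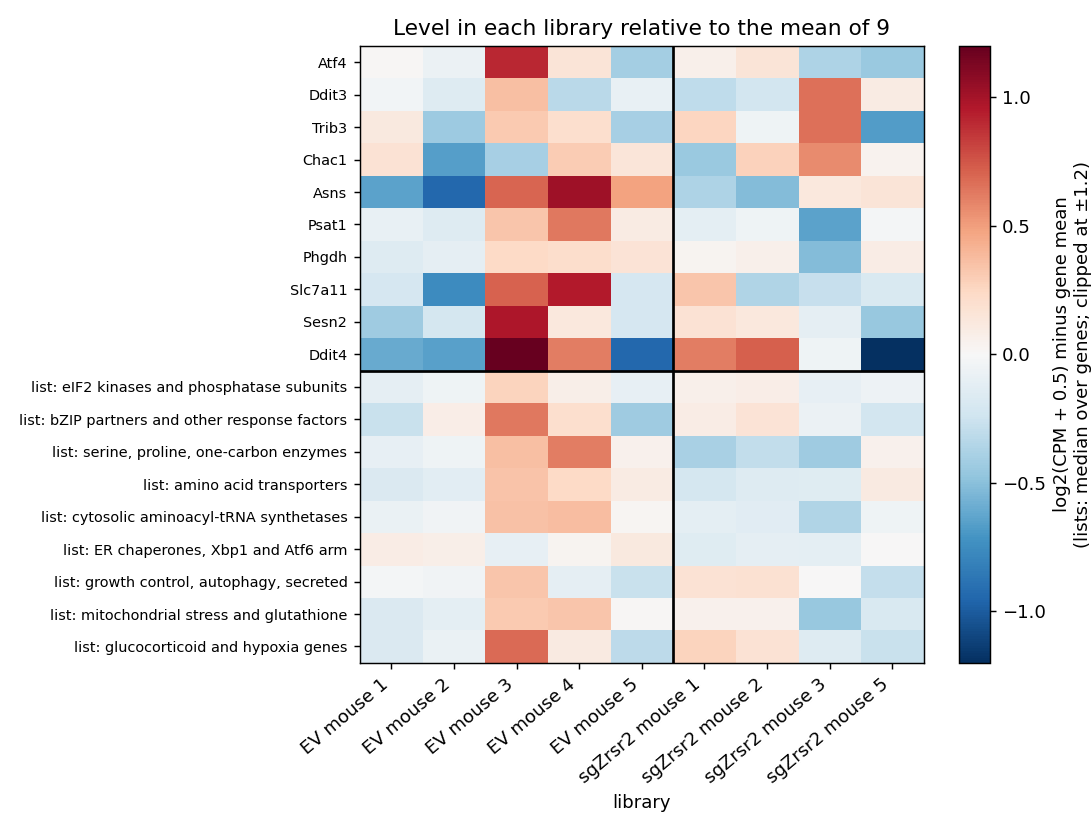
Level of each of the 10 genes and the median of each pathway list (rows) in each library (columns), as log2(CPM + 0.5) minus the mean over the 9 libraries, with colours clipped at ±1.2. EV mouse 3 is above the mean in 9 of the 10 genes, all but Chac1, and sgZrsr2 mouse 3 is above it in Ddit3, Trib3, Chac1 and Asns.

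Atf4 messenger RNA was compared with each of the other 9 genes across the 9 libraries on the log2(CPM + 0.5) scale. For Ddit4 the relation was positive (Pearson r = 0.86, exact permutation p = 0.00214, adjusted over the 9 relations 0.0193, and Spearman rho = 0.90, p = 0.00203, adjusted 0.0183). Without EV mouse 3 and sgZrsr2 mouse 5, the libraries farthest from the median of Atf4, r was 0.67. Sesn2 had a slightly higher r and a lower rho (r = 0.88, exact permutation p = 0.00658, adjusted 0.0296, and rho = 0.78, p = 0.0172, adjusted 0.0775). Without those 2 libraries its r was 0.47. They were the highest and the lowest of Atf4, and a narrower range of Atf4 can by itself lower r for either gene. The other 7 relations had r between -0.39 and 0.58 and did not pass (adjusted exact permutation p 0.290 to 0.959). Asns, the amino acid readout, had an r of 0.19. The order of these relations depended on the libraries. Within the 6 libraries of low Car1, r was 0.93 for Sesn2, 0.82 for Ddit3, 0.81 for Ddit4, 0.74 for Phgdh and 0.64 for Asns, and between -0.12 and 0.57 for the other 4. For Ddit3 the r over all 9 libraries was -0.018, and it was -0.70 without EV mouse 3 and sgZrsr2 mouse 5. The libraries of sgZrsr2 mice 1 and 2 are very alike and count as separate points here, and r was 0.86 for Ddit4 and 0.88 for Sesn2 without sgZrsr2 mouse 2. Of 9623 other genes averaging 10 CPM or more, Sertad1 (r = 0.99), Taf4b (0.99) and Nufip2 (0.98) had the pattern most like that of Atf4 over the 9 libraries. These genes were picked by this r, and each was highest in EV mouse 3 (97.7, 63.8 and 268 CPM), as Atf4 was.

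**Figure D4:**
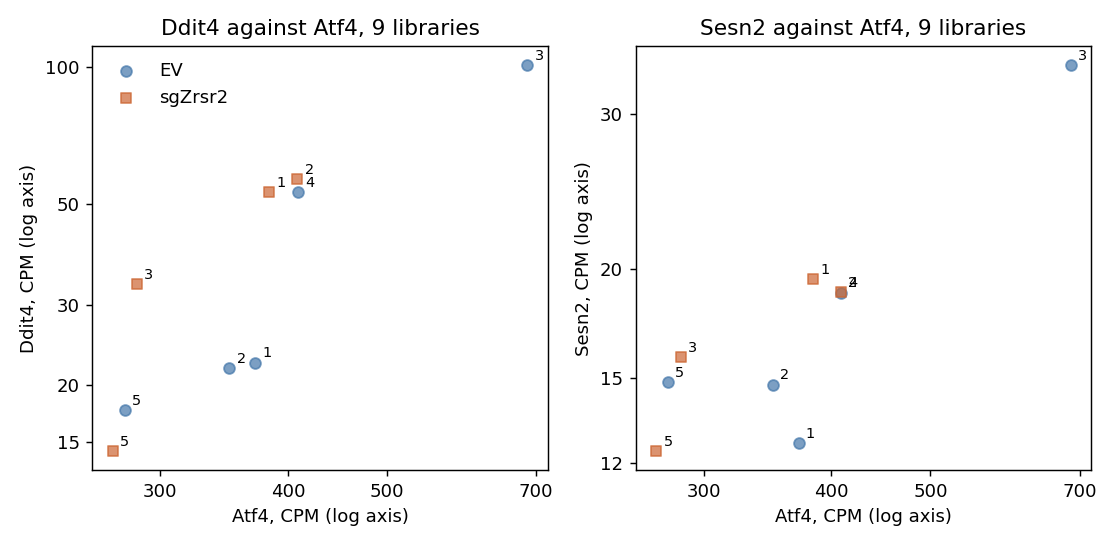
Ddit4 (left) and Sesn2 (right) against Atf4, all in CPM on log axes, in 5 EV (circles) and 4 sgZrsr2 (squares) libraries with the mouse number beside each point. EV mouse 3 lies far from the rest at 686 CPM of Atf4; EV mouse 4 and sgZrsr2 mouse 2 coincide in the right panel at 18.8 CPM of Sesn2.

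The wider pathway was described through 9 lists of genes. The cytosolic aminoacyl-tRNA synthetases, which charge tRNAs and include many Atf4 targets, were all fitted lower with sgZrsr2, 20 of 20, where 51.5% of all genes were. Their median log2 fold change was -0.30, 8 of the 20 had an unadjusted p under 0.05 in the lower direction (2.98% of all genes did), and 3 had groups that did not overlap (1.32% of all genes in that direction). The number at an unadjusted p under 0.05 fell to 5 without EV mouse 3, 4 without EV mouse 4, 4 without sgZrsr2 mouse 2 and 3 without sgZrsr2 mouse 3. It was 7 without sgZrsr2 mouse 1, 8 without EV mouse 5, 9 without EV mouse 2, and 10 without EV mouse 1 or without sgZrsr2 mouse 5. None of the 20 passed the adjusted threshold. All 20 were highest in EV mouse 3 (7) or EV mouse 4 (13), and 13 were lowest in sgZrsr2 mouse 3. With EV mice 3 and 4 left out together 17 of 20 were below 0, with a median of -0.13. Lower at an edgeR unadjusted p under 0.05 in that fit were 1 of the 20, beside 334 of all 15073 genes. With the mouse number as a block (mice 1, 2, 3 and 5 only) it was 2 of the 20, beside 151 of all 14793 genes.

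Farsb, a subunit of the phenylalanine synthetase, measured 62.9, 60.9, 80.0, 89.3 and 63.4 CPM (EV mice 1 to 5) and 45.2, 46.9, 46.5 and 57.0 CPM (sgZrsr2 mice 1, 2, 3 and 5). The highest sgZrsr2 value lay under the lowest EV value, with a log2 fold change of -0.54 (SE 0.14, edgeR unadjusted p = 0.00287, adjusted 0.714). Cars, the cysteine synthetase, averaged 40.2 ± 7.25 CPM over the EV libraries (SD, n = 5) and 27.8 ± 5.74 CPM over the sgZrsr2 libraries (SD, n = 4), a log2 fold change of -0.53 (SE 0.17, edgeR adjusted p = 0.714), and its groups overlapped.

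The enzymes of serine, glycine, proline and one-carbon metabolism, the pathway into which Phgdh and Psat1 feed, were fitted lower in 11 of 11 tested (of 13 listed), where 51.5% of all genes were, with a median of -0.39 (-0.25 without EV mouse 4 and -0.26 without sgZrsr2 mouse 3). Of these, 3 had an unadjusted p under 0.05 in the lower direction (5 without sgZrsr2 mouse 5), as 2.98% of all genes did, and 1 had groups without overlap, as 1.32% of all genes did in that direction, and 0 passed the adjusted threshold. Got1, the cytosolic aspartate aminotransferase, measured 29.4, 35.5, 36.1, 48.4 and 31.5 CPM (EV mice 1 to 5) and 21.1, 23.9, 21.8 and 26.7 CPM (sgZrsr2 mice 1, 2, 3 and 5). There was no overlap, and the log2 fold change was -0.63 (SE 0.16, edgeR unadjusted p = 0.00245, adjusted 0.714). Mthfd2, the mitochondrial folate enzyme and a well-known Atf4 target, averaged 46.1 ± 15.8 CPM over the EV libraries (SD, n = 5) and 27.8 ± 3.38 CPM over the sgZrsr2 libraries (SD, n = 4). Its log2 fold change was -0.73 (SE 0.23, edgeR unadjusted p = 0.00905, adjusted 0.714), and EV mouse 1 (32.4 CPM) lay just below sgZrsr2 mouse 5 (32.8 CPM). With EV mice 3 and 4 left out together 10 of 10 tested were below 0, with a median of -0.18.

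Of the amino acid transporters 10 of 10 tested were fitted lower (51.5% of all genes were), with a median of -0.24. In the lower direction 1 had an unadjusted p under 0.05 (2.98% of all genes did) and 1 had groups without overlap (1.32% of all genes did). Both counts are Slc7a6, an arginine and leucine exchanger, averaging 82.8 ± 8.04 CPM over the EV libraries (SD, n = 5) and 68.3 ± 5.96 CPM over the sgZrsr2 libraries (SD, n = 4) (log2 fold change -0.28, SE 0.11, edgeR adjusted p = 0.714). Slc3a2, the heavy chain that partners Slc7a11 and Slc7a5, measured 154, 159, 357, 268 and 196 CPM (EV mice 1 to 5) and 169, 164, 150 and 174 CPM (sgZrsr2 mice 1, 2, 3 and 5). EV mice 3 and 4 were the highest (log2 fold change -0.47, SE 0.23, edgeR adjusted p = 0.714). With those 2 libraries left out together 7 of 10 transporters were below 0 and the median was -0.03. Fits that each left out a single library gave 8 to 10 below 0 of the 10 or 11 then tested. The number at an unadjusted p under 0.05 was 3 without EV mouse 1, 2 without EV mouse 2 and 0 without sgZrsr2 mouse 3.

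The chaperones of the endoplasmic reticulum and genes of the Xbp1 and Atf6 arm, the branch of the unfolded protein response beside Atf4, were fitted lower in 13 of 15 (51.5% of all genes were), with a median of -0.20. At an unadjusted p under 0.05 there were 3 lower and 1 higher, where 2.98% and 3.87% of all genes were. The count of 3 became 5 without EV mouse 3 and 1 without EV mouse 4. Hspa5, the chaperone BiP, measured 1395, 1338, 2030, 1416 and 908 CPM (EV mice 1 to 5) and 950, 942, 709 and 711 CPM (sgZrsr2 mice 1, 2, 3 and 5). Only EV mouse 5 reached into the sgZrsr2 range (log2 fold change -0.78, SE 0.21, edgeR unadjusted p = 0.00347, adjusted 0.714). Manf, a secreted factor of the same arm, was at 133 ± 21.4 and 101 ± 18.2 CPM (SD, n = 5 and 4; log2 fold change -0.40, SE 0.15, edgeR adjusted p = 0.714). Of the 15, 5 were highest and 5 lowest in EV mouse 3, and the median level there was -0.10 relative to the mean of the 9 libraries on the log2 scale.

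Among the sensors and regulators of eIF2, 10 of 14 were fitted lower (51.5% of all genes were), with a median of -0.08 (8 of 14 and -0.042 without EV mouse 3). Of the 14, 1 was lower at an edgeR unadjusted p under 0.05, as 2.98% of all genes were. Eif2b3, a subunit of the eIF2B exchange factor, averaged 29.96 ± 9.91 CPM over the EV libraries (SD, n = 5) and 20.6 ± 3.16 CPM over the sgZrsr2 libraries (SD, n = 4; log2 fold change -0.54, SE 0.23, edgeR adjusted p = 0.714). Eif2b4, another subunit, had a log2 fold change of -0.27 (SE 0.14, edgeR adjusted p = 0.714). Of the mitochondrial stress and glutathione genes, 2 of 11 were lower at an edgeR unadjusted p under 0.05 (2.98% of all genes were). In the same direction 1 had groups without overlap (1.32% of all genes did). They were fitted lower in 8 of 11 (51.5% of all genes were), with a median of -0.20. That median was -0.083 without sgZrsr2 mouse 3, -0.10 without EV mouse 3, -0.012 without EV mouse 5 and sgZrsr2 mice 3 and 5, and 0.0085 (5 of 11 lower) without EV mice 3 and 4. The smallest p of this list belonged to the chaperonins Hspe1 (log2 fold change -0.48, SE 0.16) and Hspd1 (-0.50, SE 0.20), both at an edgeR adjusted p of 0.714. The bZIP partners were lower in 6 of 10, where 51.5% of all genes were (median -0.08), but in 4 of 10 without EV mouse 3 (median 0.087). At an edgeR unadjusted p under 0.05 there were 0 of these 10, against 6.85% of all genes. Fosl1 (-0.95, SE 0.57, edgeR adjusted p = 0.728) and Atf3 (-0.90, SE 0.69, edgeR adjusted p = 0.754) had the smallest p of that list. Atf3 ran from 14.1 CPM in sgZrsr2 mouse 5 to 265 CPM in EV mouse 3. Growth control, autophagy and secreted targets were split, 6 lower and 6 higher, where 51.5% of all genes were lower (median -0.05, and 0.13 without EV mouse 3). At an edgeR unadjusted p under 0.05, 1 was higher and 0 were lower (3.87% and 2.98% of all genes). The higher gene was Sesn3, at 12.2 ± 1.89 and 17.1 ± 3.74 CPM (SD, n = 5 and 4; log2 fold change 0.49, SE 0.19, edgeR adjusted p = 0.714). Vegfa was the next in that list (log2 fold change -1.15, SE 0.53, edgeR adjusted p = 0.714), with EV mouse 3 at 212 CPM and the other 8 libraries at 25.99 to 49.8 CPM.

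**Figure D5:**
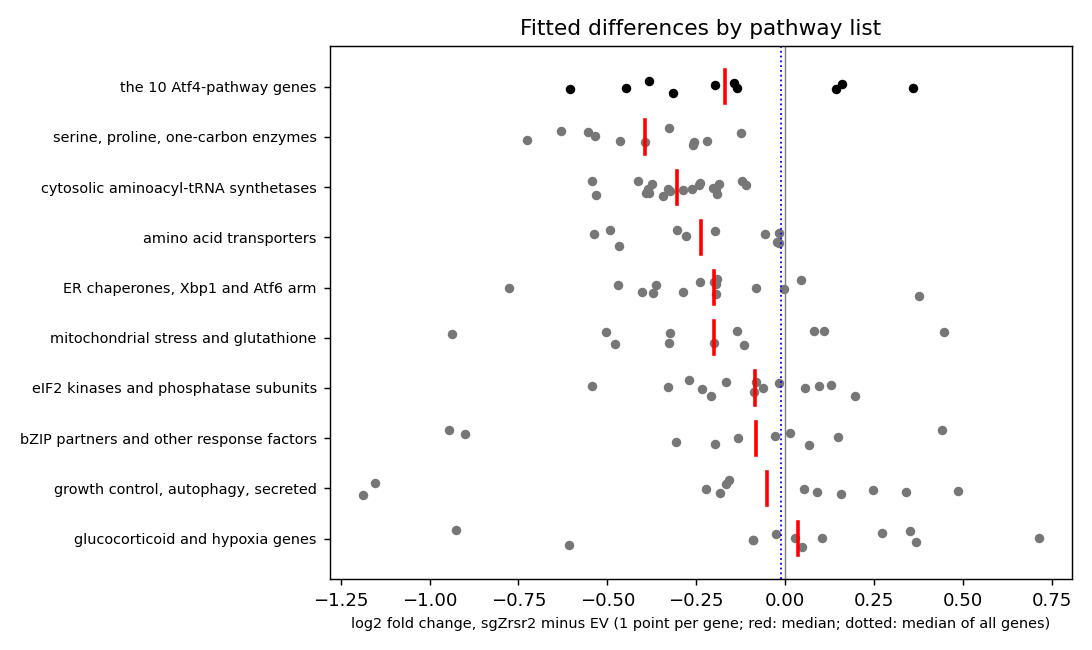
Fitted log2 fold change (sgZrsr2 minus EV, x axis) of each tested gene of the 9 pathway lists and of the 10 genes (rows), with the list median in red and the median of all genes (-0.01) dotted. All points of the one-carbon, synthetase and transporter rows lie below 0, with medians of -0.39, -0.30 and -0.24.

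Genes known to respond to glucocorticoids or low oxygen, which also act on Ddit4, were split, 7 higher and 5 lower (51.5% of all genes were lower). Their median was 0.04, and -0.057 to 0.15 when single libraries were left out. At an edgeR unadjusted p under 0.05, 1 was higher and 2 were lower (3.87% and 2.98% of all genes). Zbtb16, a stem cell factor that glucocorticoids raise, averaged 11.2 ± 3.16 CPM over the EV libraries (SD, n = 5) and 18.4 ± 3.22 CPM over the sgZrsr2 libraries (SD, n = 4; log2 fold change 0.71, SE 0.22, edgeR unadjusted p = 0.00733, adjusted 0.714). Slc2a1, the glucose transporter, had a log2 fold change of -0.93 (SE 0.34, edgeR adjusted p = 0.714), with EV mouse 3 at 123 CPM. Tsc22d3 and Klf9, both direct glucocorticoid targets, were looked at because Ddit4 varied so widely and were chosen after their values were seen. Tsc22d3 measured 69.2, 70.9, 222, 114 and 45.9 CPM (EV mice 1 to 5) and 205, 188, 96.5 and 49.7 CPM (sgZrsr2 mice 1, 2, 3 and 5). Klf9 measured 18.3, 26.9, 75.1, 38.2 and 22.1 CPM (EV mice 1 to 5) and 63.8, 60.5, 33.7 and 26.4 CPM (sgZrsr2 mice 1, 2, 3 and 5). For both, as for Ddit4, the 4 highest libraries were EV mice 3 and 4 and sgZrsr2 mice 1 and 2. Of the other genes in the list, Fkbp5 and Egln3 had these same 4 highest libraries, and the rest did not. Per1 was higher in sgZrsr2 mouse 3 (224 CPM) than in EV mouse 4 (159 CPM), and Zbtb16 was at 9.04 and 10.9 CPM in EV mice 3 and 4 against 19.97 and 19.98 CPM in sgZrsr2 mice 3 and 5. Tsc22d3 and Klf9 did not differ between the groups past the adjusted threshold (edgeR adjusted p 0.851 and 0.831).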

How the data were processed

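RNA-seq of 9 libraries (5 EV, 4 sgZrsr2) was analysed from RSEM expected counts per gene, the unnormalized values the authors deposited. Reads had been processed with cutadapt 1.11 and RSEM 1.2.30 on GRCm38, per the submitters' processing notes. Aligner, annotation release and strand setting are not given in the sources used here. RSEM divides reads shared by genes, which leaves fractions. Per the labels' protocols, libraries came from 5 ng of polyA-selected RNA with PCR, which adds technical variation.

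Counts were rounded, filtered with filterByExpr (minimum 10, total 15; 14944 genes, 99.93% of counts) and scaled by TMM (factors 0.894 to 1.07). edgeR 4.0.16 in R 4.3.3 tested sgZrsr2 against EV by quasi-likelihood over all genes, adjusting by Benjamini-Hochberg, and was tested on simulated data. SE is the log2 fold change over the square root of F. CPM per kilobase used GENCODE M21 exon unions (GRCm38). P-values measure the spread between these samples. Alternatives included limma 3.58.1 and DESeq2 1.42.0. The 10 genes, the lists, written from general knowledge, and the named genes (the 10, Zrsr2, per list those past the threshold or else the 2 of smallest p, and the 3 genes most like Atf4) were chosen with earlier results of these data known. Mouse numbers were not used to pair the libraries, as the labels do not say whether they mark pairs. Sequences are from RefSeq.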

Additional observations from a re-analysis of the deposited data

Results flagged for a closer look

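Each of 21 measures (the 10 genes, Zrsr2 and 10 list medians) was searched within each group for a library lying apart. The 42 sets searched gave 3 such libraries, where about 2.1 (1 in 20) would be expected by chance alone. The sets share libraries and some genes, so they are not independent. For Sesn2 it was EV mouse 3, whose 34.1 CPM exceeded the 12.6 to 18.8 CPM of the rest of the group, and the gap took 0.714 of the group's range. For Phgdh it was sgZrsr2 mouse 3, whose 227 CPM was under the 332 to 347 CPM of the rest (0.880 of the range). For Zrsr2 it was again EV mouse 3, whose 62.2 CPM exceeded the 50.6 to 51.9 CPM of the rest (0.883 of the range). EV mouse 3 also had the lowest TMM factor, 0.894, and its part in these values was not tested.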

How the results depend on the processing

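None of the 10 genes passed the adjusted threshold in edgeR, limma-voom or DESeq2 under any of the 12 alternatives or 9 fits that left out a library. Limma-voom with sample quality weights turned Atf4 (0.018), Asns (0.30), Sesn2 (0.21), Phgdh (0.047), Slc7a11 (0.84) and Ddit4 (0.76), and gave medians of 0.25 for the 10 genes and 0.090 for the mitochondrial list. Leaving out EV mice 3 and 4 together, added after the data were seen, turned Atf4 (0.014), Asns (0.11), Sesn2 (0.24), Slc7a11 (0.56) and Ddit4 (0.93, unadjusted p 0.0498), with medians of 0.22 for the 10 genes and -0.032 for the transporters. Without EV mouse 5 and sgZrsr2 mice 3 and 5, Ddit3 was -0.25 and Ddit4 0.15. The mouse number as a replicate block turned Slc7a11 (0.10) and Ddit4 (0.20). That fit used mice 1, 2, 3 and 5 only, so it also left out EV mouse 4. Leaving out EV mouse 4 without a block gave -0.17 for Slc7a11. The parts of the block and of that library were not told apart. Same-numbered libraries deviated together in 1 of 4 pairs (correlations -0.43, -0.24, -0.50 and 0.46). The labels do not say whether a number marks a shared litter or batch, and correlations over so few libraries cannot decide it. The cause of these turns was not tested. Fits without 1 library ranged from -0.11 to 0.26 for Ddit3, -0.11 to 0.37 for Trib3, -0.31 to 0.11 for Sesn2 and -0.38 to 0.44 for Ddit4. Of the 10, the number at an unadjusted p under 0.05 was 1 with upper-quartile factors, 1 without EV mice 3 and 4, and 0 to 1 without 1 library. Over all genes DESeq2 called 16 and averaging sgZrsr2 mice 1 and 2 called 1. The synthetases were below 0 in 20 of 20 in each fit without 1 library and in 16 of 20 under limma-voom. Chac1 and Slc7a11 dropped out under a filter of 1 CPM in 4 libraries. Both had 7 counts in their lowest library.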
